A study of Mus musculus with 8 samples.

Results

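The 10 genes of the CC chemokine family described here (Ccl2, Ccl3, Ccl4, Ccl5, Ccl6, Ccl7, Ccl9, Ccl12, Ccl20 and Ccl22) were followed in co-cultures of mouse spleen cells with colon cancer cells. They were picked by gene name with the results of these libraries already known, and make up 10 of the 52636 gene IDs in the files. CC chemokines are small secreted proteins that attract leukocytes through G protein-coupled receptors named CCR. Ccl2, Ccl7 and Ccl12 attract monocytes, Ccl3, Ccl4 and Ccl5 attract T cells and other leukocytes, and Ccl20 and Ccl22 attract cells that carry CCR6 and CCR4. Ccl6 and Ccl9 are rodent chemokines that are made mainly by macrophages and other myeloid cells, and the receptor CCR1 binds both.

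The study sequenced polyA RNA from whole co-cultures of 2 kinds, with 4 libraries each. In the trogocytic co-cultures, splenocytes were kept with sorted trogocytic cancer cells, and in the non-trogocytic ones, the control, with sorted non-trogocytic cancer cells. In trogocytosis a cell takes up pieces of another cell's membrane with the proteins in it. In both groups the cancer cells came from organoids that carry a tdTomato reporter, were injected into the spleen and spread to the liver. Sorting used tdTomato and CD4, a T cell surface protein. In both groups the splenocytes came from Actin-GFP reporter mice, the strain is given as C57BL/6, and 1 cancer cell was kept with 50 splenocytes for 5 days. Organoid genotype and mouse age are not stated in the labels. The labels do not say whether replicates came from separate animals or cultures, so each p-value reflects the spread among these libraries alone, and that spread may be technical.

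Values are TPM (a level per transcript length that sums to the same total in every library). Depth ran from 1.39 to 1.84 Gb of aligned bases, or 6.93 to 9.21 M read pairs of 200 bases. Between 10867 and 12362 genes per library had at least 1 TPM. Markers of the cells named in the labels were present in every library. The summed TPM of 13 epithelial markers was 6178 to 7582 in trogocytic and 3811 to 9800 in non-trogocytic co-cultures, with Cdx1 at 0 in all. The sum of 18 T cell markers was 624 to 1810 TPM in trogocytic and 345 to 1197 TPM in non-trogocytic co-cultures. Non-trogocytic replicate 1 had the highest Lyz2 and Cd3e levels and the lowest Krt18 level of the 8 libraries, and with replicate 1 of each group left out the log2 fold change of Ccl6 was -2.87. In such a mixture, fewer cells of a type and less RNA per cell cannot be told apart.

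Ccl6 stood apart from the other family members. It had 341, 154, 231 and 382 TPM in trogocytic replicates 1 to 4, against 2534, 1509, 2598 and 1359 TPM in non-trogocytic replicates 1 to 4. The groups did not overlap, and the lowest non-trogocytic library was well above the highest trogocytic one. Ccl6 averaged 277 ± 104 TPM in trogocytic and 2000 ± 657 TPM in non-trogocytic co-cultures (SD, n = 4 each). The log2 fold change was -2.87 ± 0.31 (SE) on the log2(TPM + 1) scale, trogocytic against non-trogocytic, and the non-trogocytic mean was 7.23 times the trogocytic one. An estimated 826 to 15419 read pairs per library lay behind these levels, a value computed from FPKM and depth and not a count. Ccl6 is on chromosome 11, 83587882 to 83593087 on the minus strand of GRCm38 (ENSMUSG00000018927.3), with 4 exons in a coding transcript of 1440 bases. The antisense gene E230016K23Rik overlaps it, but not in an exon, and averaged 0.019 TPM.

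Ccl9 lay at a lower level, with a fold change of the same sign. It had 8.80, 0.66, 0.22 and 3.50 TPM in trogocytic replicates 1 to 4, against 17.1, 11.95, 20.8 and 8.40 TPM in non-trogocytic replicates 1 to 4. The groups overlapped by 1 library, since trogocytic replicate 1 was above non-trogocytic replicate 4. The log2 fold change was -2.27 ± 0.67 (SE) on the log2(TPM + 1) scale, and an estimated 2.22 to 256 read pairs per library lay behind the levels. Set against Ccl6, the Ccl9 ratios lay close together in the control and further apart in the other group, where they rest partly on few reads. Trogocytic replicates 2 and 3 had an estimated 7.39 and 2.22 read pairs of Ccl9, against 86.0 to 256 in the non-trogocytic libraries. Ccl9 came to 25.8, 4.29, 0.966 and 9.17 TPM per 1000 TPM of Ccl6 in trogocytic replicates 1 to 4, against 6.77, 7.92, 8.01 and 6.18 in non-trogocytic replicates 1 to 4.

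**Figure D1:**
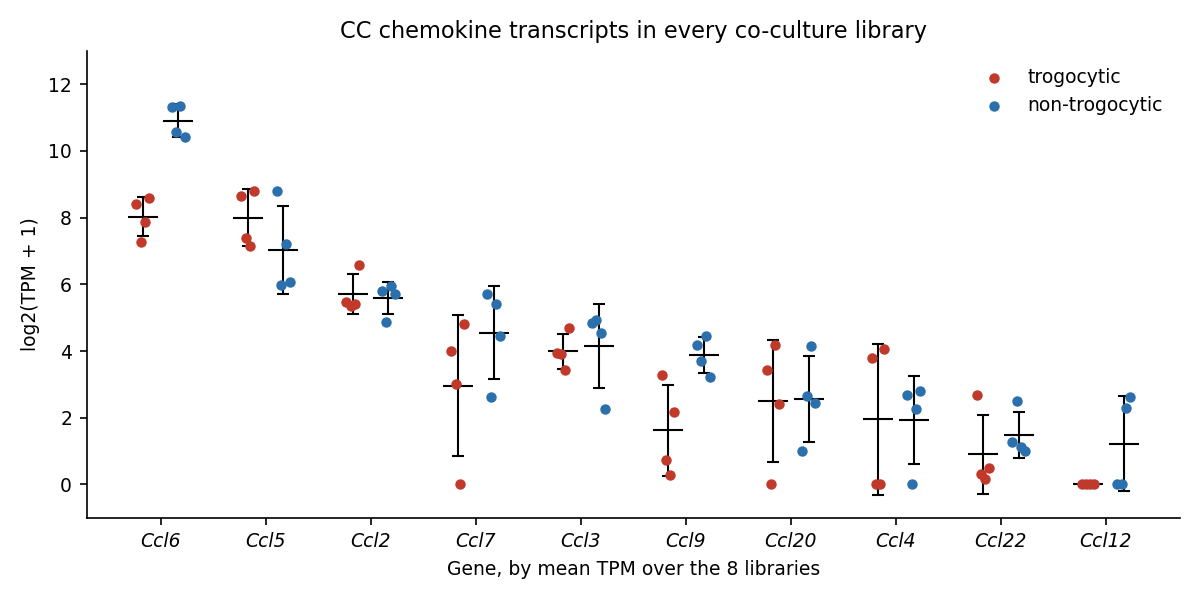
Levels of the 10 CC chemokine genes on the log2(TPM + 1) axis, with 1 point per library, trogocytic left of non-trogocytic, and a bar for the mean with SD (n = 4 each). Ccl6 is the gene whose groups do not overlap, at 154 to 382 TPM in trogocytic and 1359 to 2598 TPM in non-trogocytic co-cultures.

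Ccl9 and Ccl6 are neighbours. Ccl9 (ENSMUSG00000019122.8) is on chromosome 11, 83572919 to 83578636 on the minus strand of GRCm38, 9.245 kb from Ccl6, and its coding transcript has 4 exons and 3006 bases. In all, 8 of the 10 genes lie on chromosome 11 within 1.63 Mb, Ccl20 is on chromosome 1 and Ccl22 on chromosome 8. Ccl2 and Ccl7, another pair of neighbours, are 8.258 kb apart. The promoter windows of Ccl6 and Ccl9, from 250 bases before to 50 bases after the gene start, are shown because these are the 2 members with the lowest fold changes. They are RefSeq sequences of GRCm38.p6 on the minus strand, at chr11:83593038-83593337 for Ccl6 and chr11:83578587-83578886 for Ccl9. Capitals mark the longest run of bases that both windows share.
Ccl6: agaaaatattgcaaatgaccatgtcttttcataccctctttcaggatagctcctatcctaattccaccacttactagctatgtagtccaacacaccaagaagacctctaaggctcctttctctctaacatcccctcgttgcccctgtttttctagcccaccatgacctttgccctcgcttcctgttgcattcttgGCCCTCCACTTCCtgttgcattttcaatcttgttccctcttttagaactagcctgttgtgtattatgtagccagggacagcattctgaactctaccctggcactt
Ccl9: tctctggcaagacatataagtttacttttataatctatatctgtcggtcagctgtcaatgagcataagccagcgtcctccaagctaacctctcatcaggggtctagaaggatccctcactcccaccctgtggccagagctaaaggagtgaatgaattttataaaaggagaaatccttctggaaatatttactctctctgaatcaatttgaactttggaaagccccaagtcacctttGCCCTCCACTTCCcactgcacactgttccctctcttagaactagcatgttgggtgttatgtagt

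The shared run GCCCTCCACTTCC has 13 bases and begins 55 bases before the start of Ccl6 and 14 bases before the start of Ccl9. The longest run shared by any other pair among the 6 members with a promoter in the table had 7 to 10 bases. Around this run, 58 of 74 aligned columns were identical (78.4%, with 7 gap columns). The run contains CACTTCC, a form of the motif of ETS family factors, which include the myeloid factor PU.1. Searched on both strands, CACTTCC was in 4 of the 6 member promoters (Ccl6, Ccl9, Ccl12 and Ccl22) and in 11% of all 32851 promoter windows of the same length. The AP-1 motif TGANTCA was in the Ccl9 window only among the 6, and in 7.81% of all windows. The NF-kB motif was in the windows of Ccl9, Ccl20 and Ccl22 and in 50.8% of all, and the C/EBP motif TTNNGNAA in those of Ccl3 and Ccl9 and in 40.7% of all. The TATA motif TATAAA was in the windows of Ccl9 and Ccl12 and in 13.6% of all, and the short PU.1 core GAGGAA in those of Ccl3, Ccl12 and Ccl20 and in 28.3% of all. None of the 6 windows held the STAT6 motif (6.95% of all) or the GATA motif GATAAG (7.44% of all). A match describes letters in the window and no site of a factor.

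Ccl5, a ligand of CCR1 that T cells and natural killer cells make in quantity, was the second most abundant member over all libraries. It had 401, 167, 140.3 and 443 TPM in trogocytic replicates 1 to 4, against 446, 62.0, 147 and 66.3 TPM in non-trogocytic replicates 1 to 4. The groups overlapped, because non-trogocytic replicate 1 was the highest of the 8 libraries. The log2 fold change was 0.98 ± 0.61 (SE) on the log2(TPM + 1) scale. Ccl5 averaged 288 ± 156 TPM in trogocytic and 180.2 ± 181 TPM in non-trogocytic co-cultures (SD, n = 4 each).

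The monocyte attractants fell into an abundant, a variable and a barely detected gene. Ccl2, the main ligand of CCR2, had 43.6, 39.8, 41.8 and 95.1 TPM in trogocytic replicates 1 to 4, against 55.2, 28.3, 61.0 and 51.8 TPM in non-trogocytic replicates 1 to 4. Its groups overlapped, with trogocytic replicate 4 the highest, and its log2 fold change was 0.12 ± 0.35 (SE). Ccl7 had 15.2, 7.05, 0 and 27.3 TPM in trogocytic replicates 1 to 4, against 51.4, 5.19, 41.7 and 20.6 TPM in non-trogocytic replicates 1 to 4. Its groups overlapped and its log2 fold change was -1.59 ± 1.00 (SE). Ccl12 was listed at 0 in every trogocytic library and in non-trogocytic replicates 1 and 2, and had 3.88 and 5.14 TPM in non-trogocytic replicates 3 and 4. At most an estimated 9.4 read pairs lay behind a Ccl12 level, and it was the member that missed the filter for testing, at least 1 TPM in 4 libraries.

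Ccl3 and Ccl4, inflammatory attractants of T cells and other leukocytes, showed no split by group. Ccl3 had 14.3, 13.95, 9.77 and 24.8 TPM in trogocytic replicates 1 to 4, against 27.7, 29.7, 22.1 and 3.79 TPM in non-trogocytic replicates 1 to 4. The first and second non-trogocytic replicates were above every trogocytic library, but non-trogocytic replicate 4 was the lowest of all, and the log2 fold change was -0.16 ± 0.60 (SE). Ccl4 had 12.8, 0, 0 and 15.5 TPM in trogocytic replicates 1 to 4, against 5.43, 0, 3.78 and 5.97 TPM in non-trogocytic replicates 1 to 4. It was listed at 0 in 3 libraries over both groups and never rested on more than an estimated 32.4 read pairs.

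Ccl20 and Ccl22 were low and scattered. Ccl20, the ligand of CCR6, had 9.71, 0, 17.1 and 4.30 TPM in trogocytic replicates 1 to 4, against 1.02, 5.23, 16.8 and 4.48 TPM in non-trogocytic replicates 1 to 4. Ccl22, a ligand of CCR4, had 5.40, 0.23, 0.12 and 0.42 TPM in trogocytic replicates 1 to 4, against 1.42, 4.63, 1.18 and 1.00 TPM in non-trogocytic replicates 1 to 4. In both genes the groups overlapped, and the log2 fold changes were -0.07 ± 0.92 (SE) for Ccl20 and -0.56 ± 0.62 (SE) for Ccl22.

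Over the family, 9 of the 10 genes were tested, 6 with a log2 fold change below 0 and 3 above, against 49.3% below 0 among all 11433 tested genes. Ccl6 alone was called (limma, adjusted p below 0.05 over all tested genes), where 0.0525% of tested genes were called and 0.035% were called lower. Ccl6 alone had groups that did not overlap, where 2.68% of tested genes had such groups and 1.3% with the trogocytic group lower. Ccl6 and Ccl9 had an unadjusted p below 0.05, as had 4.59% of tested genes. The median log2 fold change of the 9 was -0.16, and that of all tested genes was 0.01. The Ccl6 call was lost without trogocytic replicate 1, 2 or 3 or non-trogocytic replicate 3, with log2 fold changes from -3.0 to -2.62. Since this contrast was in view when the genes were picked, these counts describe them and test nothing.

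The order of the levels differed between the groups at the top. In trogocytic co-cultures the means ran from Ccl5 and Ccl6 through Ccl2, Ccl3, Ccl7, Ccl20, Ccl4, Ccl9 and Ccl22 to Ccl12. In the non-trogocytic ones they ran from Ccl6 through Ccl5, Ccl2, Ccl7, Ccl3, Ccl9, Ccl20, Ccl4 and Ccl12 to Ccl22. Ccl6 was above Ccl5 in 4 of 4 non-trogocytic libraries, where its mean was 11.1 times that of Ccl5, while Ccl5 was above Ccl6 in 3 of 4 trogocytic libraries. The ranges of Ccl5 and Ccl6 overlapped in trogocytic co-cultures. Ccl2 was above Ccl3 in 4 of 4 trogocytic libraries and above Ccl7 in 4 of 4 non-trogocytic ones. Further down, the ranges of neighbouring genes overlapped in both groups, except at the trogocytic end with Ccl12 at 0. Even so, Ccl9 was above Ccl22 in 4 of 4 trogocytic libraries and above Ccl20 in 4 of 4 non-trogocytic libraries. The other neighbours with overlapping ranges below Ccl2 were not in the same order in every library of a group.

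As shares of the summed TPM of the 10 genes, Ccl6 took 40.0, 40.2, 52.5 and 38.4% in trogocytic replicates 1 to 4, against 80.7, 91.1, 89.1 and 89.0% in non-trogocytic replicates 1 to 4. Ccl5 took 31.9 to 47.1% in trogocytic and 3.74 to 14.2% in non-trogocytic co-cultures, and Ccl2 took 5.12 to 10.4% in trogocytic and 1.71 to 3.4% in non-trogocytic co-cultures. For these 3 genes the shares did not overlap between groups. Shares within a library are tied, so a lower share of Ccl6 raises the others, and the TPM levels of Ccl5 and Ccl2 overlapped between groups. The sum itself was 852, 382, 440 and 995 TPM in trogocytic replicates 1 to 4, against 3139, 1656, 2916 and 1526 TPM in non-trogocytic replicates 1 to 4. Without Ccl6, the sums overlapped, at 209 to 613 TPM in trogocytic and 147 to 605 TPM in non-trogocytic co-cultures.

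**Figure D2:**
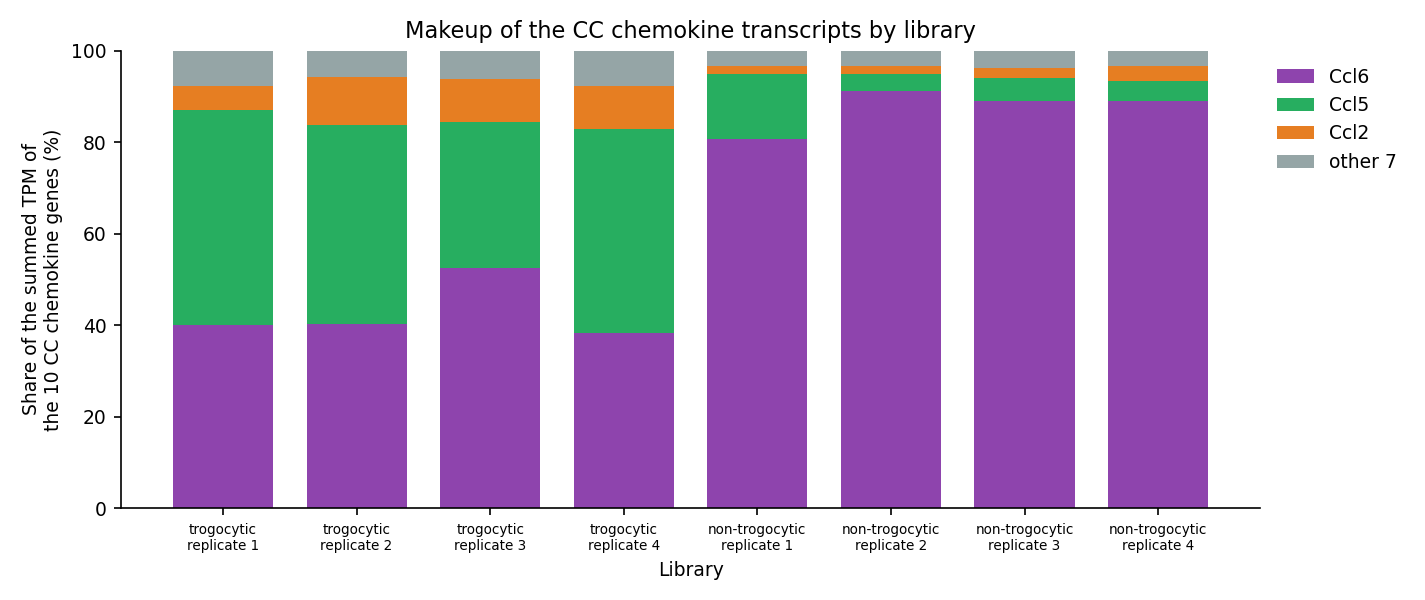
Share of the summed TPM of the 10 CC chemokine genes (percent) taken by Ccl6, Ccl5, Ccl2 and the other 7 in each library, trogocytic libraries on the left. Ccl6 takes 38.4 to 52.5% in trogocytic and 80.7 to 91.1% in non-trogocytic co-cultures.

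Macrophages are a main known source of Ccl6 and Ccl9. Of 18 macrophage markers 15 were tested, and all 15 had a log2 fold change below 0, with a median of -0.79. Of all tested genes 49.3% were below 0. No marker of the list was called by limma, with 4 at an unadjusted p below 0.05, against 4.59% of all tested genes. The summed TPM of the 18 markers was 1711 to 5494 in trogocytic and 3496 to 15173 in non-trogocytic co-cultures, and no gene of the list was at 0 in every library. The mean of log2(TPM + 1) over the list differed by -0.82 ± 0.44 (SE), with an exact permutation p of 0.171, two-sided over 70 splits (adjusted p = 0.686 over 12 marker lists). Without trogocytic replicate 1 it differed by -1.13, with an exact permutation p of 0.0286. This list holds Lyz2 and Csf1r, whose levels were in view when the genes were picked, so its p-values are a description. Fcgr1, the high-affinity IgG receptor, had a log2 fold change of -2.29 and the smallest adjusted p of the list (limma, 0.581). Its groups did not overlap, as in 2.68% of all tested genes.

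Lyz2, the lysozyme of macrophages and neutrophils, had 3846, 1315, 1175 and 2999 TPM in trogocytic replicates 1 to 4, against 12057, 4920, 6060 and 2636 TPM in non-trogocytic replicates 1 to 4. Csf1r, the receptor of macrophage colony-stimulating factor, had 0.17 to 0.63 TPM in trogocytic and 0.73 to 4.88 TPM in non-trogocytic co-cultures, and missed the filter. Per 1000 TPM of Lyz2, Ccl6 came to 88.7, 117, 196 and 127 TPM in trogocytic replicates 1 to 4, against 210.2, 307, 429 and 515 TPM in non-trogocytic replicates 1 to 4. These ratios did not overlap, nor did those per 1000 TPM of Cd68, a lysosomal macrophage protein, at 307 to 575 TPM in trogocytic and 1243 to 2767 in non-trogocytic co-cultures. Per 1000 TPM of Mrc1, the macrophage mannose receptor, the Ccl6 ratios did not overlap either, and per 1000 TPM of the macrophage genes Ms4a7 and C1qb they did. For Ccl9 the ratios to Lyz2, Ms4a7 and C1qb overlapped, with those to Lyz2 at 0.19 to 2.29 in trogocytic and 1.42 to 3.43 in non-trogocytic co-cultures. Per 1000 TPM of Cd68, Ccl9 did not overlap, at 0.556 to 7.92 TPM in trogocytic and 8.41 to 22.2 TPM in non-trogocytic co-cultures, nor did it per 1000 TPM of Mrc1, at 15.6 to 259.9 TPM in trogocytic and 335 to 656 TPM in non-trogocytic co-cultures.

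With Lyz2 as a covariate in limma, the log2 fold change of Ccl6 was -2.14 ± 0.27 (SE), that of Ccl9 -0.85 ± 0.69 (SE) and that of Ccl5 2.63 ± 0.39 (SE). In that fit 0.647% of tested genes were called, Ccl6 and Ccl5 among them. Lyz2 itself had a log2 fold change of -1.43 ± 0.48 (SE), trogocytic against non-trogocytic. Ccl5 was called in 1 of 19 alternatives, this fit. With Ptprc, the CD45 gene of all leukocytes, as the covariate instead, the log2 fold change of Ccl6 was -3.06 ± 0.22 (SE), that of Ccl9 -2.54 ± 0.63 (SE) and that of Ccl5 0.53 ± 0.30 (SE). Of these Ccl6 was called there and Ccl5 was not (limma adjusted p = 0.817), where 0.0525% of tested genes were called. The contrast and the relation to Lyz2 were in view when the genes were picked. The calls of members in both fits thus describe them and test nothing. Ccl5 per 1000 TPM of Lyz2 was 104 to 148 TPM in trogocytic and 12.6 to 37.0 TPM in non-trogocytic co-cultures. Set against lymphocyte genes, Ccl5 overlapped between groups. Per 1000 TPM of Nkg7, a granule gene of natural killer and cytotoxic T cells, it came to 3078 to 7310 TPM in trogocytic and 3250.5 to 6224 TPM in non-trogocytic co-cultures. Of 18 T cell markers 16 were tested, 1 with a log2 fold change below 0 and 15 above, against 49.3% below 0 among all tested genes. The list mean differed by 0.67 ± 0.58 (SE), with an exact permutation p of 0.314 (adjusted p = 0.735). This list holds Cd3e and Trac, whose levels were in view when the genes were picked, so its p is a description. With 1 library left out the list difference ran from 0.29 without non-trogocytic replicate 4 to 0.99 without non-trogocytic replicate 1. No T cell marker was called by limma, with 2 at an unadjusted p below 0.05, against 4.59% of all tested genes.

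Over the 8 libraries, 9 members were set against Lyz2, Csf1r, the T cell receptor genes Cd3e and Trac, and the epithelial genes Epcam and Krt18. None of the 54 relations, those of Ccl6 included, passed at an adjusted exact permutation p below 0.05, with 9 at an unadjusted p below 0.05 for Pearson's r and 8 for Spearman's rho. Without non-trogocytic replicate 2, 3 relations passed. The relations to Lyz2, Csf1r, Cd3e and Trac were in view when the genes were picked, so they are given as a description. The highest was that of Ccl9 with Lyz2, at r = 0.92 and rho = 0.95. Without the 2 libraries farthest from the median of Lyz2, r was 0.94. For deviations from the group means, r of Ccl9 was 0.84 with Lyz2, 0.014 with Csf1r and 0.90 with Trac, that of Ccl5 was 0.91 with Lyz2, and that of Ccl3 was 0.93 with Cd3e.

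Of the relations to the epithelial genes, that of Ccl5 with Epcam was the farthest from 0, with r = -0.83 (exact permutation p = 0.0037, adjusted p = 0.0998) and rho = -0.90 (exact permutation p = 0.0046, adjusted p = 0.123), and r was -0.88 without the 2 farthest libraries. With Trac, Ccl5 had r = 0.81 and rho = 0.64, and r was 0.70 without the 2 farthest libraries. Ccl3 with Cd3e had r = 0.89 and rho = 0.74, and that relation rests partly on the non-trogocytic replicates 1 and 4, since r was 0.58 without them. For Ccl6 the groups form separate clusters of 4, so no pooled r is printed, and 4 libraries are too few for one within a group. As a description, deviations of Ccl6 from its group means had r = 0.83 with those of Lyz2, 0.21 with Csf1r, 0.76 with Trac, 0.66 with Cd3e, -0.63 with Epcam and -0.59 with Krt18.

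**Figure D3:**
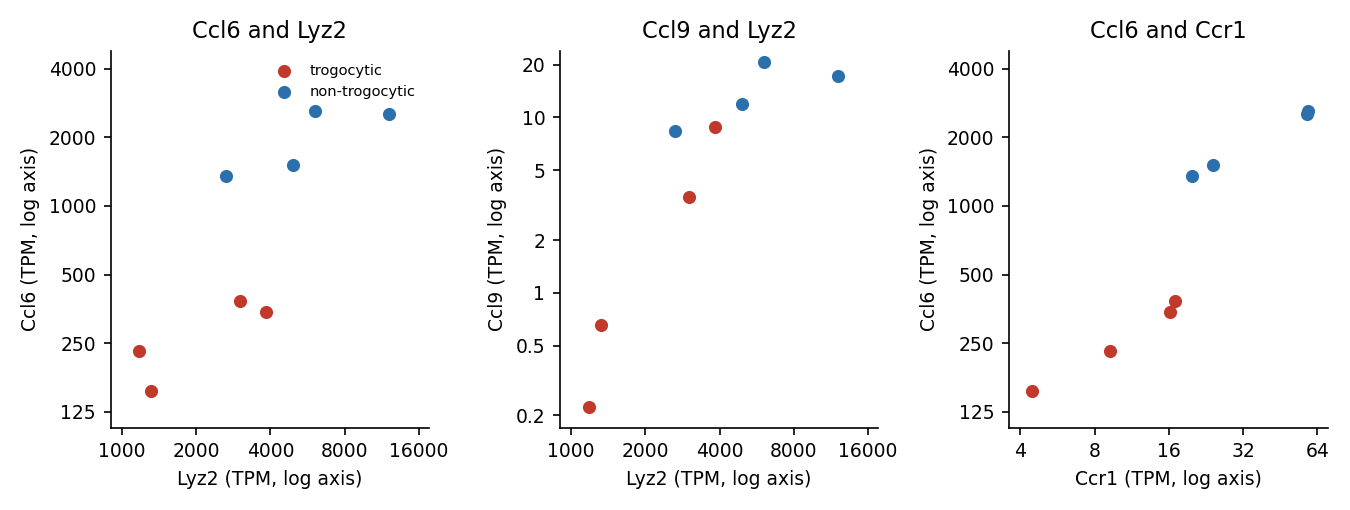
TPM of Ccl6 and Ccl9 against Lyz2, and of Ccl6 against Ccr1, on log axes with 1 point per library, trogocytic in red and non-trogocytic in blue. Trogocytic replicate 1 has 341 TPM of Ccl6 at 3846 TPM of Lyz2, and non-trogocytic replicate 4 has 1359 TPM of Ccl6 at 2636 TPM of Lyz2, while the Ccl9 and Lyz2 levels have r = 0.92 over both groups.

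Among the 36 pairs of members, the deviations from the group means with the highest r were those of Ccl4 and Ccl7 (0.82), Ccl5 and Ccl6 (0.81), Ccl6 and Ccl9 (0.77), Ccl5 and Ccl7 (0.76), Ccl4 and Ccl9 (0.76), Ccl2 and Ccl4 (0.75), Ccl4 and Ccl6 (0.72) and Ccl2 and Ccl7 (0.72). Each value describes 8 points that share a library with both genes.

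The genes most like Ccl6 over the 8 libraries, of 7905 with a mean of at least 5 TPM, by Pearson's r of the levels were Atp6v0d2, Spp1, Ighg3, Ccr1 and Mmp12, in that order, a ranking that contains the difference between the groups. Spp1 encodes osteopontin and had 784 ± 202 TPM in trogocytic and 2240 ± 464 TPM in non-trogocytic co-cultures (SD, n = 4 each). Atp6v0d2, a subunit of the vacuolar proton pump, had 34.1 ± 12.6 TPM in trogocytic and 171 ± 76.2 TPM in non-trogocytic co-cultures (SD, n = 4 each). By deviations from the group means the list changed to Ccr1 (r = 0.99), Ten1 (0.98), Snora31 (0.98), Glipr1 (0.97) and H2-Q7 (0.97), and Ccr1 alone was on both. Being the highest of 7905 genes over 8 libraries, these r values are high by selection. The lists describe and test nothing, and the same holds for those of Ccl9 and Ccl5.

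For Ccl9, the 5 most like genes were Mmp12 (r = 0.96), Ms4a8a (0.94), Npy (0.94), Lyz1 (0.94) and Rap2c (0.93). Mmp12, macrophage elastase, was thus on the lists of both Ccl6 and Ccl9, and had 3.89 to 47.0 TPM in trogocytic and 54.6 to 232 TPM in non-trogocytic co-cultures. By deviations the list for Ccl9 was led by Tfec (r = 0.98) and Gimap7 (0.98), followed by Txk (0.97), Fam221b (0.97) and Specc1 (0.96). For Ccl5, the list held the mitochondrial genes mt-Ts1 (r = 0.99), mt-Nd4 (0.98) and mt-Nd6 (0.97), with Spic (0.98) and Arhgap15 (0.98). By deviations it was mt-Ts1 and Cd28 (both 0.996), Clec4d (0.98), Gngt2 (0.98) and Igf1 (0.98).

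Of 15 CC receptor genes, 6 were tested, 5 with a log2 fold change above 0 and 1 below. No receptor was called by limma, and 2 had an unadjusted p below 0.05, as had 4.59% of all tested genes. Ccr1, the receptor of Ccl6 and Ccl9 that also binds Ccl3, Ccl5 and Ccl7, was the gene below 0. It had 16.1, 4.48, 9.22 and 16.9 TPM in trogocytic replicates 1 to 4, against 58.0, 24.3, 58.6 and 19.9 TPM in non-trogocytic replicates 1 to 4. The groups did not overlap, as in 2.68% of all tested genes. The log2 fold change was -1.69 ± 0.51 (SE; limma unadjusted p = 0.00706, adjusted p = 0.939). Per 1000 TPM of Lyz2, Ccr1 overlapped between groups, at 3.4 to 7.84 TPM in trogocytic and 4.81 to 9.66 TPM in non-trogocytic co-cultures, and it overlapped per 1000 TPM of Ms4a7 and of C1qb. It did not overlap per 1000 TPM of Cd68, at 14.4 to 23.0 TPM in trogocytic and 28.4 to 62.4 TPM in non-trogocytic co-cultures, or of Mrc1, at 431 to 913 TPM in trogocytic and 1042 to 1554 TPM in non-trogocytic co-cultures. Ccr7, the receptor of Ccl19 and Ccl21 on naive T cells and mature dendritic cells, had 29.9, 19.96, 6.33 and 36.4 TPM in trogocytic replicates 1 to 4, against 20.96, 6.43, 4.29 and 0.47 TPM in non-trogocytic replicates 1 to 4. Its groups overlapped, and its log2 fold change was 1.78 ± 0.80 (SE; limma unadjusted p = 0.0487, adjusted p = 0.9998).

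The other tested receptors were low. Ccr6, the receptor of Ccl20, ranged from 0.44 to 16.2 TPM in trogocytic and from 0 to 13.4 TPM in non-trogocytic co-cultures, with a log2 fold change of 1.08 ± 0.97 (SE). Ccr2, the receptor of Ccl2, reached 4.87 TPM in trogocytic and 2.00 TPM in non-trogocytic co-cultures, with a log2 fold change of 0.17 ± 0.64 (SE). Ccr3 and Ccr9 had log2 fold changes of 0.98 ± 0.72 and 1.02 ± 0.62 (SE). Ccr9 shares exons with the same-strand gene Gm17200, so its level is uncertain. Ccr4, the receptor of Ccl22, was listed at 0 in every library, as were Ccr1l1 and the decoy receptors Ackr1 and Ackr2.

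**Figure D4:**
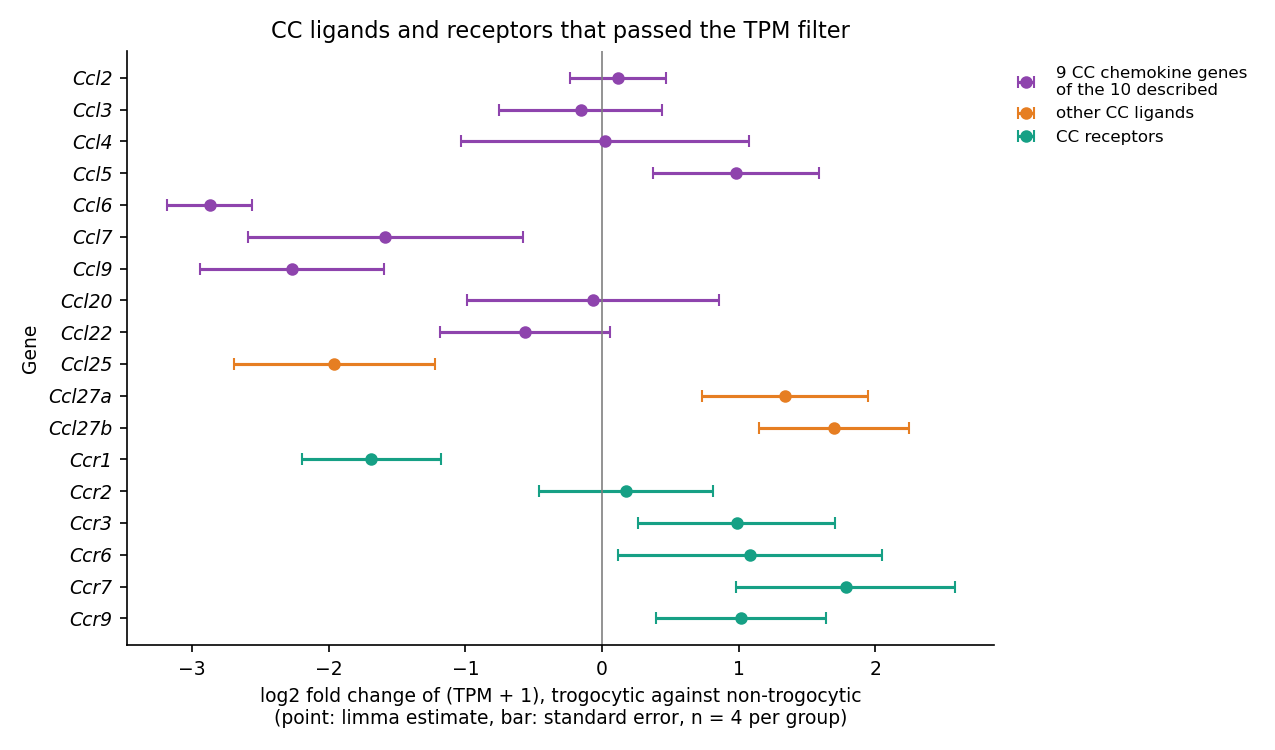
Log2 fold changes of (TPM + 1), trogocytic against non-trogocytic, for the tested CC ligands and receptors, with limma's estimate as the point and its standard error as the bar (n = 4 each). Ccl6 lies lowest at -2.87, and Ccr1 is the receptor below 0, at -1.69.

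Among 14 further CC ligands, 3 were tested and 7 were listed at 0 in every library. No further ligand was called by limma, and 2 had an unadjusted p below 0.05, as had 4.59% of all tested genes. Ccl25, the ligand of Ccr9, had 13.1, 9.90, 5.61 and 0 TPM in trogocytic replicates 1 to 4, against 23.2, 17.3, 20.5 and 23.4 TPM in non-trogocytic replicates 1 to 4. The groups did not overlap, as in 2.68% of all tested genes. The log2 fold change was -1.96 ± 0.74 (SE; limma unadjusted p = 0.0231, adjusted p = 0.9998), or -1.13 without trogocytic replicate 4. Exons of Elavl1 on the other strand, at a mean of 65.2 TPM, overlap those of Ccl25, and the strand setting of the counting is not given in the sources used here, so reads of both cannot be told apart. Ccl27b had 4.30, 9.2, 2.22 and 8.86 TPM in trogocytic replicates 1 to 4, against 0, 1.75, 1.00 and 1.81 TPM in non-trogocytic replicates 1 to 4, and a log2 fold change of 1.70 ± 0.55 (SE; limma unadjusted p = 0.0106, adjusted p = 0.939). The groups of Ccl27b did not overlap, as in 2.68% of all tested genes, with the trogocytic group higher. Ccl27b and Ccl27a, the latter at 1.34 ± 0.61 (SE), are near-identical copies, so their levels are uncertain. Ccl8 appeared in 1 library, at 15.4 TPM in non-trogocytic replicate 1.

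Genes upstream and downstream showed no call. Of 20 genes of chemokine receptor signalling, 15 were tested, 7 below 0 and 8 above, with none at an unadjusted p below 0.05; Gnb1, a G protein beta subunit, stood at 1148 ± 262 TPM in trogocytic and 1011 ± 127 TPM in non-trogocytic co-cultures (SD, n = 4 each). Of 12 cytokines that induce chemokines 3 were tested, all below 0, and Il4, an inducer of Ccl6 in macrophages, was listed at 0 in every library. Of 12 receptors for such cytokines 7 were tested, and Csf2rb, the shared chain of the GM-CSF and IL-3 receptors, had 18.7, 4.71, 8.15 and 7.17 TPM in trogocytic replicates 1 to 4, against 47.3, 14.7, 21.4 and 12.5 TPM in non-trogocytic replicates 1 to 4. Its log2 fold change was -1.19 ± 0.52 (SE; limma unadjusted p = 0.0447, adjusted p = 0.9998). Of 17 regulators of chemokine genes 16 were tested, 8 in each direction, with 2 at an unadjusted p below 0.05, against 4.59% of all tested genes. Rela, a subunit of NF-kB, had 2.35 to 8.30 TPM in trogocytic and 0.43 to 1.27 TPM in non-trogocytic co-cultures, the latter near the pseudocount of 1. It had a log2 fold change of 1.38 ± 0.45 (SE) and groups that did not overlap (limma adjusted p = 0.939). Fos, a subunit of AP-1, had 21.3 to 27 TPM in trogocytic and 11.2 to 19.5 TPM in non-trogocytic co-cultures, a log2 fold change of 0.71 ± 0.31 (SE) and groups that did not overlap (limma adjusted p = 0.9998). Rela and Fos are named as the 2 regulators with the smallest p, and 2.68% of all tested genes had groups that did not overlap.

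The other marker lists were compared the same way. The epithelial mean differed by -0.03 ± 0.28 (SE), with an exact permutation p of 0.83. None of the 6 fibroblast markers was tested, and their summed TPM was 0 to 0.185 in trogocytic and 0.56 to 35.5 in non-trogocytic co-cultures. Their mean differed with an exact permutation p of 0.0286, the smallest that 70 splits can give, and an adjusted p of 0.343. For the other 8 lists, of natural killer, B, plasma, neutrophil, dendritic, mast and eosinophil, endothelial, and erythroid and platelet markers, the exact permutation p ran from 0.114 to 0.971, and no gene was called by limma. The neutrophil marker Csf3r was at 0 in every library. Its list summed to 527 to 935 TPM in trogocytic and 429 to 1083 TPM in non-trogocytic co-cultures. S100a8, of that list, averaged 252 TPM in trogocytic and 224 TPM in non-trogocytic co-cultures. The eosinophil markers Epx and Siglecf were at 0 in every library. Prg2, of the same list as these, had 0 to 93.6 TPM in trogocytic and 0 to 42.1 TPM in non-trogocytic co-cultures. The part of any marker list in the Ccl6 difference was not tested. The ratios and the covariate fits above used single genes and are a description.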

How the data were processed

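Per the labels' protocols, polyA RNA was made into libraries with a low-input kit and read as paired ends of 100 bp. HISAT2 and StringTie 1.3.3, with the builds GRCm38 and mm10, are named in the submitters' processing notes. Strand setting and annotation release are not given in the sources used. Read counts were not analysed here. Per the file headers, each deposited table gives a coverage, an FPKM and a TPM per gene of 1 library. The coverage deposited by the authors is the average depth of reads on a gene, the FPKM is scaled per depth, and the TPM is scaled by the authors to 1 total per library. Depth was taken from the ratio of coverage to FPKM. Read pairs per gene were estimated from FPKM, depth and the length of the longest coding transcript, at 200 bases per pair. They are not counts.

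TPM was summed per gene ID, since 12 IDs were on more than 1 row in some library. Of 52636 IDs, 49035 matched GENCODE M21 by version, all at the same position. Genes with at least 1 TPM in 4 of 8 libraries were tested (11433) with limma 3.58.1 (R 4.3.3). This two-sided test used log2(TPM + 1), a mean-variance trend and Benjamini-Hochberg adjustment. The pseudocount of 1 understates the change of low genes. Exact permutation p-values of marker lists and relations were computed in NumPy 2.4.6, with the ranks for Spearman's rho from SciPy 1.17.1. All 10 members were named, with every tested CC ligand and receptor, genes of the other lists by smallest p or highest mean, and the 5 genes most like Ccl5, Ccl6 and Ccl9. The members and gene lists were chosen with earlier results of these data known. Promoters were aligned with Biopython 1.88. Some items are not reported here. Alternatives covered pseudocount, filter, unit, scaling, trend, covariates, replicate block and libraries left out.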

Additional observations from a re-analysis of the deposited data

Results flagged for a closer look

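In 6 of 37 groups of 4 libraries, 1 library stood apart from the other 3 by Dixon's test. Its chance rate of about 1 group in 20 holds for normally distributed values. The test was run on TPM, which need not be so distributed and holds values of 0, so the 6 cannot be set against that rate. Ccl2 had 95.1 TPM in trogocytic replicate 4, against 39.8 to 43.6 TPM in the other trogocytic libraries. Ccl22 had 5.40 TPM in trogocytic replicate 1, with the other trogocytic libraries at 0.118 to 0.416 TPM. In non-trogocytic replicate 2, Ccl22 had 4.63 TPM, and 1.00 to 1.42 TPM in the other non-trogocytic libraries. Ccl27a was low in non-trogocytic replicate 1, at 1.81 TPM, with 10.7 to 11.9 TPM in the other non-trogocytic libraries. The same library was high for Ccr3, at 4.39 TPM with the others listed at 0, and for Ccr9, at 2.58 TPM with the others at 0.0223 to 0.104 TPM. Ccl6 and Ccl9 had no such library in either group.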

How the results depend on the processing

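The log2 fold change of Ccl6 stayed below 0 in all 19 alternatives, at -3.06 to -2.14, and passed limma's threshold in 11. It was lost with no filter, no mean-variance trend, the replicate block, without the first replicates of both groups, and without trogocytic replicate 1, 2 or 3 or non-trogocytic replicate 3 (adjusted p = 0.0532 to 0.208). Ccl9 and Ccr1 stayed below 0 in all 19 and passed in none. The fold changes of Ccl2, Ccl3, Ccl4, Ccl7, Ccl20 and Ccl22 turned sign in at least 1 alternative, and so did that of Ccr2, below 0 in 4 of 18. Over the whole table, 6 genes were called, against 2 with a pseudocount of 0.01, 3 with a pseudocount of 5, 1 with no filter, 1 with no trend, 0 without the first replicates of both groups and 74 with Lyz2 as a covariate. Leaving out 1 library gave 0 to 3. The cause was not tested. Libraries with the same replicate number had correlations of deviations of -0.09 to 0.24, and those with different numbers -0.21 to 0.17. The labels do not say whether samples were paired, and these values cannot settle it. With the number as a replicate block 0 genes were called, with Ccl6 at a limma adjusted p of 0.0852. The median member fold change of -0.16 was -1.49 with a pseudocount of 0.01, where genes listed at 0 weigh most. With the Lyz2 covariate 1 receptor was called, Ccr7, at 3.76 ± 0.66 (limma adjusted p = 0.0448). For deviations from group means 4 relations passed. That permutation treated deviations as exchangeable over both groups, though they sum to 0 within each, so its p-values may be too small. These 4 are a description. For levels, 0 to 3 relations passed with 1 library left out, the 3 without non-trogocytic replicate 2. The macrophage list difference of -0.82 ranged from -1.13 (exact permutation p = 0.0286, without trogocytic replicate 1) to -0.58 (without trogocytic replicate 3) with 1 library left out. These list values too are a description. At most an estimated 36.6 read pairs lay behind any level of Ccl4, Ccl12 or Ccl22. Ccl4, Ccl7, Ccl12 and Ccl20 were listed at 0 in at least 1 library, and a value of 0 there means not detectable at this depth.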
